A study of Mus musculus with 6 samples.

Results

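The ERK feedback genes were followed as 10 transcripts, chosen by gene symbol from the raw count table, among 23399 genes in that table and 14987 that passed the filter on low counts. They are the MAP kinase phosphatases Dusp4, Dusp5 and Dusp6, the Sprouty genes Spry1, Spry2 and Spry4, the Sprouty-related genes Spred1 and Spred2, and the ETS transcription factor genes Etv4 and Etv5. All 10 passed the filter. The RNA came from wild-type CMT93 cells, an established mouse colorectal cancer line, grown as spheroids over soft agar with dilute Matrigel. The vehicle group was cultured with ethanol and bovine serum albumin (3 libraries), and the palmitate group with 200 µM sodium palmitate bound to albumin in the same solvent (3 libraries), for 1 week in monolayer and 5 days as spheroids. Both groups therefore received ethanol and albumin. All RNA thus came from a single line. The labels do not say whether the samples of a group were separate cultures, and the spread on which every p-value rests may for that reason be technical.

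ERK is the last kinase of the cascade that runs from growth factor receptors through RAS, RAF and MEK. Active ERK phosphorylates transcription factors in the nucleus, and among the genes it switches on are several whose products turn the cascade down again. DUSP proteins remove the activating phosphates from MAP kinases, and Sprouty and SPRED proteins act higher up, at RAS and RAF. ETV4 and ETV5 are transcription factors that rise with ERK activity and carry its signal to further genes. In the gut epithelium this cascade is driven by receptors such as EGFR and supports cell division. Message levels of these genes are often read as a sign of ERK output, but phosphorylated ERK itself was not measured here.

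Depth ranged from 18898896 to 22852940 counts per library, and each palmitate library was deeper than each vehicle library. Levels are given as CPM, counts scaled to the normalised library size. Within a group, libraries differed by 1.2 to 1.38 times the variance of counting alone, so no library was taken as a copy of another. Of the colon epithelial markers, Cdh1, Epcam, Krt8, Krt18 and Krt19 were abundant, whereas the intestinal factor Cdx2 averaged 1.72 CPM with vehicle, and Krt20, a marker of mature colon cells, 0.146 CPM. The summed level of 3 fibroblast markers reached at most 2.05 CPM with vehicle and 1.01 CPM with palmitate, Dcn being at 0 in the vehicle libraries. The sum of 4 leukocyte markers was 7.42 to 9.16 CPM with vehicle and 9.76 to 10.8 CPM with palmitate, mostly Cd68, which rose (log2 fold change 0.44, adjusted p = 1.9e-05, edgeR), while Ptprc, below 1 CPM in every library, fell (-1.62, adjusted p = 6.19e-05). The sum of 4 endothelial markers was 3.23 to 3.55 and 2.00 to 2.55 CPM. The epithelial sum was 7410 to 7490 CPM with vehicle and lower, 6800 to 6900 CPM, with palmitate, where Krt18 (-0.42, adjusted p = 4.22e-42, edgeR) and Krt8 (-0.24, adjusted p = 6.87e-26) fell and Krt19 rose (0.13, adjusted p = 3.08e-12). The epithelial markers did not fall as a whole: of 8 tested, 3 were higher and 3 lower. Cdx2 (0.51, adjusted p = 0.0141, edgeR) and Cldn7 (0.06, adjusted p = 0.0117) also rose, and Cdh1 fell slightly (-0.05, adjusted p = 0.0047). The part of these differences in the results was not tested. As in any bulk sample, fewer cells that use a gene and less RNA per cell cannot be told apart.

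The feedback genes did not move as 1 block with palmitate. Spred1, Spred2 and Dusp4 rose by factors of 1.13 to 1.2, while Spry1, Spry2 and Dusp6 fell, Spry1 most, to 0.665 of its vehicle level. Dusp5, Etv4, Etv5 and Spry4 were not called. By the two-sided quasi-likelihood test of edgeR, with adjusted p below 0.05 as the limit, 6 of 10 members were called, 3 of them up and 3 down, against 52.8% of all tested genes, 27.4% higher and 25.4% lower. In this fit the share of members called is therefore near the background. In those same 6 members the 3 palmitate libraries lay wholly above or wholly below the 3 vehicle libraries, as they did for 57.8% of all tested genes. The median log2 fold change of the members was -0.06, beside 0.00 for all tested genes, and their median size without sign was 0.259, beside 0.155.

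**Figure D1:**
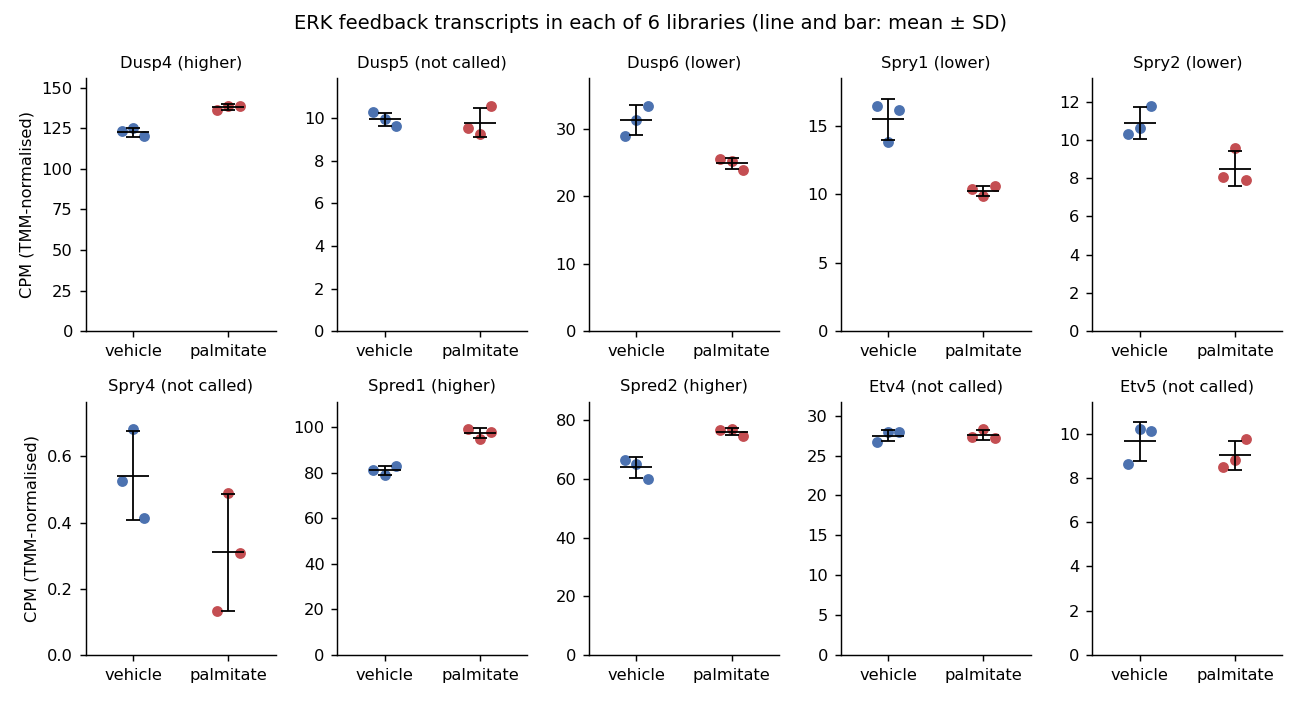
Normalised level (CPM, linear axis from 0) of each of the 10 transcripts in every library, vehicle in blue and palmitate in red, with the mean and SD of 3 libraries in black. The groups do not overlap for Dusp4, Dusp6, Spry1, Spry2, Spred1 and Spred2, and they overlap for the other 4.

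RefSeq promoter windows of build GRCm38.p6 were examined for 7 members, and not for Dusp4, Etv4 or Spry4. They are shown, as the 250 bases before the annotated start, for the 3 genes that fell and for Spred1, which had the smallest p of those that rose. Capitals mark GGAA on either strand, the core that ETS factors recognise. Spry1 (chr3:37639697-37639946, plus strand), Dusp6 (chr10:99262981-99263230, plus strand), Spry2 (chr14:105896820-105897069, minus strand) and Spred1 (chr2:117120821-117121070, plus strand) read as follows, each on the strand of its gene.
Spry1: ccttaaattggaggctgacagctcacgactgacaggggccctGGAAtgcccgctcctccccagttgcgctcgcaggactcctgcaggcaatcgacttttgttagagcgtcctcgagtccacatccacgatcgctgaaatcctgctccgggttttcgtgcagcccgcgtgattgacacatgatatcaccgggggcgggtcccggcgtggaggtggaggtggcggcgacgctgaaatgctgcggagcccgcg
Dusp6: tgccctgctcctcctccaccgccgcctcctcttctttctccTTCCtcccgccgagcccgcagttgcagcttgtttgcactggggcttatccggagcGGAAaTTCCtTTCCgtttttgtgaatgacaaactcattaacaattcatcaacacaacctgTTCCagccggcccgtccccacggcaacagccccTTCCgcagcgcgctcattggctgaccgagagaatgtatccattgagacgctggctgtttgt
Spry2: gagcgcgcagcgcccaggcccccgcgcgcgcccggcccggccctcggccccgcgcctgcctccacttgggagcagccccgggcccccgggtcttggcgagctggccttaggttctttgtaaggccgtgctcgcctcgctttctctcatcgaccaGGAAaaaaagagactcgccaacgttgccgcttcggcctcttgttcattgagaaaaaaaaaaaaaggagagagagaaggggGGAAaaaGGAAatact
Spred1: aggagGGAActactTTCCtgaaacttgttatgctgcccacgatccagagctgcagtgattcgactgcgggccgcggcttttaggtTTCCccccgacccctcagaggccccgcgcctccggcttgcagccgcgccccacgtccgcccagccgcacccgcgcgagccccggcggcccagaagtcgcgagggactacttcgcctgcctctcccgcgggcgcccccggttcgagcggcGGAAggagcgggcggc
The core occurs 6 times in the Dusp6 window, 4 times in that of Spred1, 3 times in that of Spry2 and once in that of Spry1. Of the windows not shown, that of Spred2, which rose, holds it 7 times and that of Dusp5 3 times. Separate windows of Etv5 hold it 0 and 4 times. The windows of Spred2 and Dusp5, and the Etv5 window without a match, also cover annotated exon bases. Those shown cover none. The median over all 32851 windows is 3, and 93.4% of windows hold at least 1. The longer ETS form CCGGAA, which contains the core, is held by 12% of all windows and the AP-1 form TGANTCA by 6.75%, both strands searched. Neither is found in any window of the 7 members examined. The CArG box, which serum response factor binds, is held by 1.47% of windows. The Dusp5 window holds 2 of them and the windows of the other members examined none. A match or its absence describes only the letters of these windows.

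The DUSP phosphatases differed among themselves. Dusp4 (ENSMUSG00000031530.7), a nuclear phosphatase for ERK and other MAP kinases, stood at 123, 125 and 120 CPM with vehicle and at 136, 139 and 139 CPM with palmitate. All palmitate libraries were above all vehicle libraries, and the rise was small (1.13-fold, log2 fold change 0.17, SE 0.0248, adjusted p = 7.66e-09, edgeR). Dusp6 (ENSMUSG00000019960.9), the cytoplasmic phosphatase that is selective for ERK, had 29.0, 31.4 and 33.5 CPM with vehicle and 25.5, 25.2 and 24.0 CPM with palmitate. Every palmitate library was lower, with a log2 fold change of -0.33 (SE 0.0505, adjusted p = 2.22e-08, edgeR). Dusp5 (ENSMUSG00000034765.7), the nuclear phosphatase selective for ERK, had 10.3, 9.96 and 9.65 CPM with vehicle and 9.53, 9.27 and 10.6 CPM with palmitate. Its groups overlapped and it was not called (log2 fold change -0.02, adjusted p = 0.839, edgeR), with a 95% interval of the palmitate to vehicle ratio from 0.880 to 1.10.

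The Sprouty genes had the lowest palmitate to vehicle ratios of the 10 in the main fit. The order of Spry2 and Dusp6 was not firm: after thinning their log2 fold changes were -0.293 and -0.317. Spry1 (ENSMUSG00000037211.13), whose product restrains signalling from receptor tyrosine kinases, had 16.5, 13.8 and 16.2 CPM with vehicle and 10.4, 9.85 and 10.6 CPM with palmitate. The lowest vehicle library was still above the highest palmitate library, and the log2 fold change was -0.59 (SE 0.0737, adjusted p = 6.16e-11, edgeR), with a 95% interval of the ratio from 0.601 to 0.736. Another gene model, Gm42922, overlaps Spry1 in an earlier annotation. It had 4 to 9 counts per library against 222 to 350 for Spry1. The sources used here do not say whether strand entered the counting, so how reads in the overlap were assigned is not known. Models that overlap Dusp5 and Spry4 in that annotation were not found by name among the counted genes. Spry2 (ENSMUSG00000022114.6), a related inhibitor with roles in epithelial branching, had 10.3, 10.6 and 11.8 CPM with vehicle and 8.05, 9.58 and 7.88 CPM with palmitate. Palmitate replicate 2 came close to the vehicle range without entering it, and the log2 fold change was -0.36 (SE 0.0845, adjusted p = 0.000201, edgeR). Spry4 (ENSMUSG00000024427.8) was barely present, with 10, 15 and 9 counts with vehicle and 3, 11 and 7 counts with palmitate. Its libraries overlapped and it was not called (log2 fold change -0.79, adjusted p = 0.0789, edgeR), with an unadjusted 95% interval from -1.57 to -0.02. It was called without palmitate replicate 2 (-1.27, adjusted p = 0.0237, edgeR) and by limma-voom (-0.90, adjusted p = 0.0396), within a range of -1.27 to -0.44 and of adjusted p from 0.0237 to 0.388 over its alternatives. A difference in Spry4 was not established at this depth.

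Both SPRED genes rose, by nearly the same factor. Spred1 (ENSMUSG00000027351.15), a membrane-bound inhibitor that brings neurofibromin to RAS, had 81.3, 79.1 and 82.9 CPM with vehicle and 99.2, 94.9 and 98.0 CPM with palmitate. The groups were well apart (1.2-fold, log2 fold change 0.26, SE 0.0296, adjusted p = 1.12e-12, edgeR). Spred2 (ENSMUSG00000045671.18), its close relative, had 66.6, 65.2 and 60.0 CPM with vehicle and 76.7, 77.0 and 74.7 CPM with palmitate. Its lowest palmitate library was above its highest vehicle library (1.19-fold, log2 fold change 0.25, SE 0.0339, adjusted p = 5.65e-10, edgeR).

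Neither ETS factor gene, whose products act on transcription rather than on the kinases, was called. Etv4 (ENSMUSG00000017724.15) had 26.7, 27.9 and 27.9 CPM with vehicle and 27.3, 28.3 and 27.2 CPM with palmitate. The groups overlapped almost fully (log2 fold change 0.00, adjusted p = 0.960, edgeR), and the 95% interval of the ratio ran from 0.937 to 1.07. Etv5 (ENSMUSG00000013089.16) had 8.64, 10.2 and 10.1 CPM with vehicle and 8.50, 8.79 and 9.78 CPM with palmitate. Its groups overlapped too (log2 fold change -0.10, adjusted p = 0.322, edgeR), with an interval from 0.828 to 1.05. Its log2 fold change ranged from -0.17 (without vehicle replicate 1) to -0.06 (without palmitate replicate 1) when 1 library was left out, and was called in none of these fits.

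**Figure D2:**
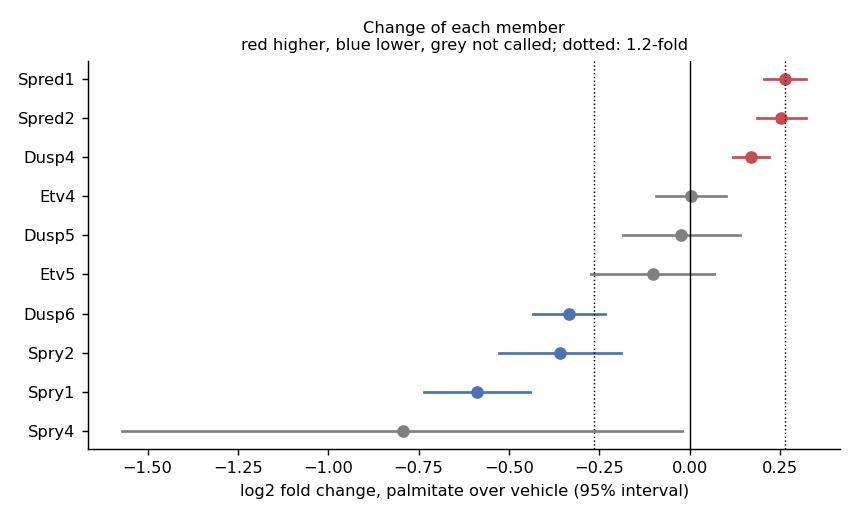
Log2 fold change of each transcript, palmitate over vehicle (horizontal axis), with its 95% interval from the edgeR fit, sorted by value. Spred1, Spred2 and Dusp4 lie to the right of 0 and Dusp6, Spry2 and Spry1 to the left, and of the called members only the interval of Spry1 lies wholly beyond a 1.2-fold change (dotted), on the lower side.

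All called changes but that of Spry1 were small. Against a minimum change of 1.2-fold, glmTreat of edgeR called 1 of the 10 members, Spry1, and 15.2% of all tested genes. The calls of Dusp4, Dusp6, Spry2, Spred1 and Spred2 ended there, with adjusted p from 0.137 (Dusp6) to 1 (Dusp4 and Spred2). In size, Spry1 exceeded 87.4% of tested genes, Spry2 76.4%, Dusp6 74.4%, Spred1 67.9%, Spred2 66.7% and Dusp4 53.3%. The authors' deposited table, from DESeq2, gives the same 6 members a q-value under 0.05. Their log2 fold changes there run from -0.59 (Spry1) to 0.27 (Spred1), and the weakest q-value, 0.0159, is that of Spry2. The share of all genes under that limit in the deposited table was not computed. DESeq2 as run here called 5692 of 17048 tested genes, a smaller share than edgeR called.

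Levels of different genes were compared per kilobase of exon, so these values depend on the annotated lengths (2.09 to 6.78 kb). Dusp4 led, at 44.8 ± 0.918 CPM per kb with vehicle (SD, n = 3), above 92.8% of tested genes with a length. Spred2 and Spred1 followed at 13.8 ± 0.753 and 12 ± 0.281 CPM per kb, and their ranges did not overlap. Dusp6 (9.99 ± 0.719) and Etv4 (8.86 ± 0.223) came next, then Spry1 (5.33 ± 0.509) and Spry2 (5.22 ± 0.380), a pair whose ranges overlapped. Dusp5 (4.03 ± 0.131), Etv5 (2.35 ± 0.213) and Spry4 (0.114 ± 0.0282) closed the order, Spry4 being above only 1.36% of tested genes. With palmitate the middle of the order differed. Etv4 (8.76 to 9.12 CPM per kb) then lay above Dusp6 (7.66 to 8.14), and Spry1 (3.39 to 3.65) lay below both Spry2 (3.78 to 4.59) and Dusp5 (3.75 to 4.29), whose ranges overlapped each other.

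Ratios of 2 relatives within a library were compared as a description of the makeup of each family. With vehicle, the log2 ratio of Dusp4 to Dusp6 was 2.07, 2.00 and 1.84, and with palmitate it was 2.41, 2.46 and 2.52. The groups did not overlap, and the ratio grew by 0.50 on the log2 scale (exact permutation p = 0.1, two-sided, the smallest p that 3 against 3 libraries allow, adjusted p = 0.267 over 8 pairs). The ratio of Dusp5 to Dusp6 grew by 0.30 and that of Dusp4 to Dusp5 by 0.20, with the same exact p and no overlap between groups. These 3 ratios are built from 3 genes, so they are not independent of each other or of the calls of Dusp4 and Dusp6. The share of such ratios over other pairs of genes was not computed. For Spred1 to Spred2 the log2 ratio was 0.34 ± 0.106 with vehicle and 0.35 ± 0.0471 with palmitate (SD, n = 3), a change of 0.01 that was within the spread between libraries. The ratio of Spry1 to Spry2 changed by -0.23, with overlap (exact permutation p = 0.2), and that of Etv4 to Etv5 by 0.10, also with overlap (exact permutation p = 0.2). These sizes hung on single libraries: the change for Spry1 to Spry2 was -0.11 without palmitate replicate 2 and -0.14 without vehicle replicate 1. For Etv4 to Etv5 it was 0.17 without palmitate replicate 3, 0.155 without vehicle replicate 1, 0.0653 without palmitate replicate 1 and 0.0637 without palmitate replicate 2. For Spred1 to Spred2 the change ranged from -0.02 to 0.07 when 1 library was left out. Pairs with Spry4 overlapped as well, at its low counts. No pair could pass a threshold of 0.05 in this design.

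**Figure D3:**
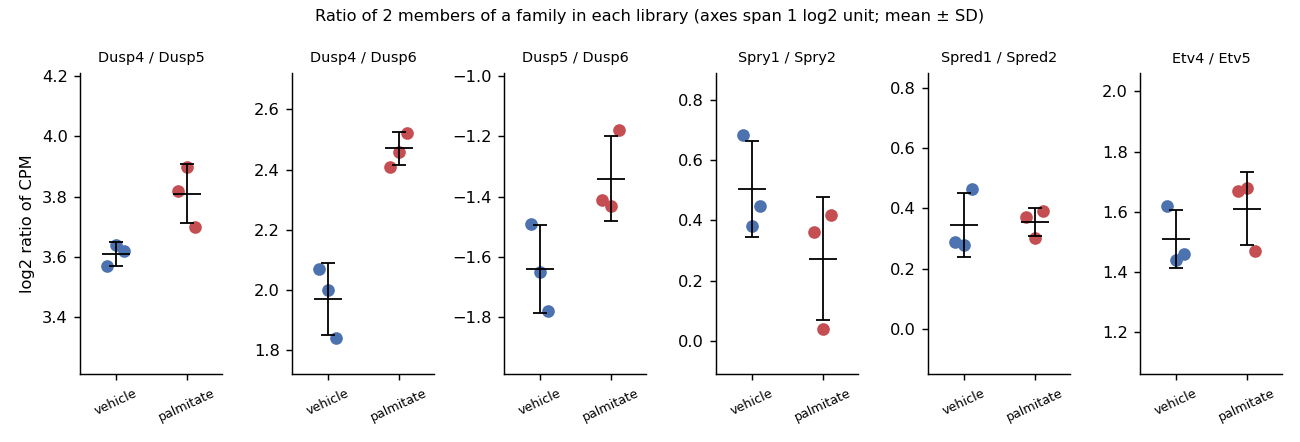
Log2 ratio of the CPM of 2 members of a family in each library (vertical axis, each panel spanning 1 log2 unit), with mean and SD of 3 libraries per group. The 3 ratios among the Dusp genes, which are not independent of each other, are higher in every palmitate library. The ratios of Spry1 to Spry2, Spred1 to Spred2 and Etv4 to Etv5 overlap between groups.

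Other genes listed as inhibitors of the cascade were split as well. The list is not of inhibitors alone, since it holds Flrt3 (higher) and Peak1 (not called). Of 29 listed, 26 were tested and 57.7% of these were called, beside 52.8% of all tested genes. In the list 10 were higher, 5 lower and 11 not called, with a median log2 fold change of 0.04. Those of smallest p were Lrig1, which limits EGFR family receptors and fell (-0.66, adjusted p = 3.93e-44, edgeR), Dusp1, an inducible nuclear phosphatase that rose (0.50, adjusted p = 1.05e-18), and Errfi1, a direct inhibitor of EGFR that fell (-0.34, adjusted p = 6.47e-16). The remaining relatives of the member families in that list were singled out after their values were seen. Spred3, the third SPRED gene, rose from 11.5 ± 1.15 to 14.1 ± 1.10 CPM (SD, n = 3; log2 fold change 0.28, adjusted p = 0.000955, edgeR), so that all 3 SPRED genes were higher. Dusp7, the closest cytoplasmic relative of Dusp6, went the other way from it, with 47.7, 49.0 and 49.5 CPM with vehicle and 54.9, 57.8 and 60.1 CPM with palmitate (log2 fold change 0.24, adjusted p = 5.12e-08, edgeR). Dusp10 (-0.33) and Dusp16 (-0.20), which act mainly on the stress kinases JNK and p38, fell. Dusp8, of that same group, was higher by 0.16 on the log2 scale (adjusted p = 0.0413, edgeR). That call ended with DESeq2 (adjusted p = 0.209), after thinning (0.134) and when vehicle replicate 1 or 2, or palmitate replicate 2 or 3, was left out (0.0622 to 0.191). Dusp2 was low and not called (-0.33, adjusted p = 0.341, edgeR). Its value hung on single libraries, from -0.57 without palmitate replicate 2 to -0.125 without palmitate replicate 1, and was called in none of these fits.

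Upstream, receptors and ligands included the largest falls seen in the pathway lists. Of 30 listed, 19 were tested and 73.7% of these were called, beside 52.8% of all tested genes. In the list 6 were higher, 8 lower and 5 not called, with a median log2 fold change of -0.03. The receptor tyrosine kinase gene Kit had 106, 109 and 109 CPM with vehicle and 42.1, 39.2 and 37.6 CPM with palmitate (log2 fold change -1.45, SE 0.0344, adjusted p = 1.81e-54, edgeR). Every palmitate library lay far below the vehicle libraries. Pdgfa, a ligand gene, fell by 0.80 on the log2 scale, and Met, the receptor for hepatocyte growth factor, by 0.28 (adjusted p = 3.84e-23, edgeR). Among the 6 that were higher was Egfr (1.17-fold, log2 fold change 0.22, adjusted p = 1.12e-13, edgeR). Fgf1 had the largest rise of this list (0.72, adjusted p = 4.17e-06).

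Within the cascade itself differences were smaller. Of 30 listed adaptors, RAS and RAF genes, kinases and ELK factors, 29 were tested and 55.2% of these called, beside 52.8% of all tested genes. In the list 12 were higher, 4 lower and 13 not called, with a median log2 fold change of 0.05. Mapk3, which encodes the kinase ERK1, a substrate of DUSP phosphatases, had 160, 159 and 156 CPM with vehicle and 139, 142 and 141 CPM with palmitate, a fall of small size (log2 fold change -0.17, SE 0.0232, adjusted p = 8.91e-10, edgeR). Elk3, an ETS factor that ERK phosphorylates, rose (0.34, adjusted p = 1.13e-13), as did the adaptor gene Grb2 (0.21, adjusted p = 2.91e-09).

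Other transcripts that ERK signalling raises were likewise mixed. Of 28 listed, 24 were tested and 62.5% of these were called, beside 52.8% of all tested genes. In the list 9 were higher, 6 lower and 9 not called, with a median log2 fold change of 0.05. Those of smallest p were the AP-1 gene Fosl2, which rose (0.39, adjusted p = 3.81e-35, edgeR), the membrane protein gene Emp1, which fell (-0.24, adjusted p = 1.83e-24), and the small MAF factor gene Maff, which fell (-0.41, adjusted p = 6.82e-19). None of the 5 lists moved in 1 direction only. Of all tested genes 27.4% were higher and 25.4% lower, so a mix of directions is not particular to these lists. The calls of Met, Mapk3, Grb2, Emp1, Dusp7, Dusp8, Dusp10, Dusp16, Spred3 and Nsd2 ended against a minimum change of 1.2-fold.

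**Figure D4:**
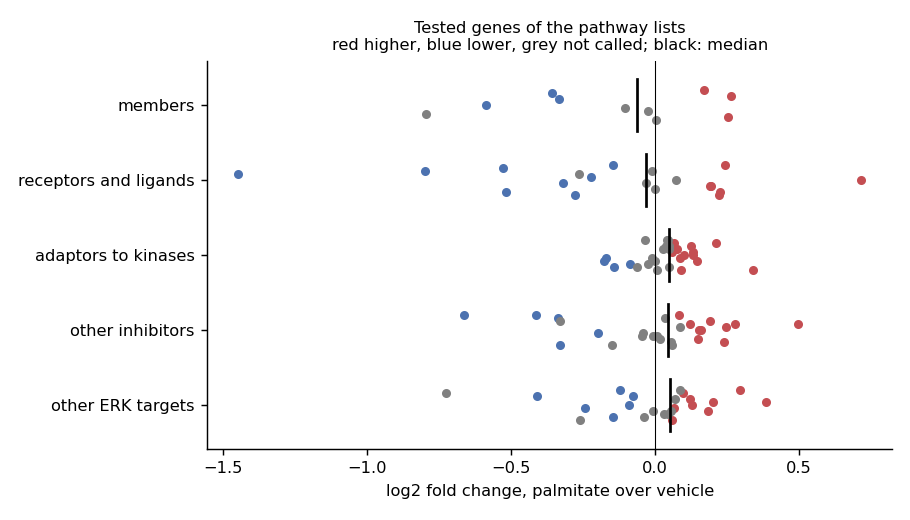
Log2 fold change, palmitate over vehicle (horizontal axis), of each tested gene of the members and of the 4 pathway lists, red for higher, blue for lower and grey for not called, with the median in black. Each list holds genes on both sides of 0, and the medians lie between -0.06 and 0.05.

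Genes whose log2 CPM followed Spred1, the member of smallest p, most closely over the 6 libraries were Rbpms2 (Pearson r = 0.999), Nsd2 (0.999) and Igsf11 (0.998). These libraries share the step between the groups, which sets such a value, and the size of the step was unlike among them, with log2 fold changes of 1.06, 0.11 and 0.72 beside 0.26 for Spred1.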

How the data were processed

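Polyadenylated RNA of 6 libraries, made with a strand-marking kit per the labels' protocols, was counted per gene. The authors used STAR 2.6.1, HTSeq, and DESeq2 1.34.0 with build mm39, per the submitters' processing notes. The deposited counts are raw, and a second table holds the authors' log2 fold change, p-value and q-value for each gene. Symbols follow Gencode, per the column description.

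Groups came from the sample titles. The counts went into edgeR 4.0.16 (R 4.3.3, TMM, filterByExpr with a minimum count of 10, glmQLFit with robust estimation, glmQLFTest), adjusted by Benjamini-Hochberg over all 14987 tested genes at 0.05, and the test was checked on counts drawn with known changes. CPM values are TMM-normalised, intervals use the standard error of the fit, and ratios of relatives use log2 CPM with a prior count of 2. Exon lengths came from an earlier annotation by Ensembl identifier for 96.4% of tested genes. Other settings tried were no filter, median-of-ratios size factors, DESeq2 1.42.0, limma-voom (3.58.1), glmTreat, the replicate number as a block, thinning to the shallowest library, and leaving out each library. Members and lists were chosen with earlier results of these data known. Text names all members, the 3 called genes of smallest p per list, Mapk3, and the 3 genes most like Spred1. The Dusp and Spred relatives named beside them, and Egfr, Fgf1, Flrt3 and Peak1, were chosen after their values were seen. A gene that this rule also names is not reported here. Figures were drawn with matplotlib 3.10.9.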

Additional observations from a re-analysis of the deposited data

How the results depend on the processing

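The 6 member calls held with size factors by median of ratios, without a count filter, with DESeq2, with limma-voom, with the replicate block, after thinning and without any single library. Only the minimum change of 1.2-fold altered a count by over 1.5 times: genes called went from 7915 to 2275, members called higher from 3 to 0 and members called lower from 3 to 1. That test asks for a larger change by construction. Leaving out 1 library gave 7260 to 7406 genes called, 3 members higher and 3 to 4 lower, the additional one being Spry4, as with limma-voom. DESeq2 called 5692 of 17048 tested genes, a smaller share than in the main fit. The values of 2 members near 0, neither of them called, changed sign when 1 library was left out: Dusp5 ranged from -0.0789 to 0.018 (positive without palmitate replicate 2) and Etv4 from -0.0156 to 0.0174 (negative without vehicle replicate 1 or palmitate replicate 2). With the replicate number as a block 7933 genes were called. No call changed among the members, the 3 genes of smallest p per pathway list, or the Dusp and Spred relatives. Libraries of equal number did not deviate together (correlations of deviations from the group means -0.00448, 0.00846 and 0.00715). The spread within a group was close to counting noise, so these values cannot show whether the numbers pair the samples. A prior count of 0.5 moved no ratio of relatives by more than the spread between libraries. Depth limits Spry4, with at most 15 counts per library, and after thinning it did not pass the filter.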
